A study of Mus musculus with 12 samples.

Results

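Binding of Eed was compared with input chromatin in the wild type mouse forebrain at stage E12.5, over every promoter window of the deposited tables and every deposited Eed summit. The comparison takes 2 of the 12 libraries, 1 Eed library and 1 input library, and asks which gene classes held the most and the least Eed. It covers all 55385 windows, which reach 1 kb to either side of an annotated start in all but 2 cases, and 61019 summits. Both libraries came from untreated wild type forebrain of the C57BL/6 strain by cross-linked chromatin immunoprecipitation (X-ChIP) on the BGISEQ-500. H3K27me3, H3K27ac, RNA polymerase II and IgG of the same tissue were measured by CUT&Tag on the NovaSeq, and the second genotype, EedcKO, appears here only through its Eed and input libraries. The labels state neither sex nor the number of embryos, and do not say what of Eed is deleted in EedcKO. With 1 library a side no difference was tested and replicate spread is unknown. Intervals beside a ratio were computed from the Eed and input counts by the exact Clopper-Pearson method at 95%, and cover counting error only.

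Eed belongs to the core of Polycomb repressive complex 2 (PRC2), which methylates lysine 27 of histone H3 through Ezh2 or Ezh1. Eed itself binds trimethylated lysine 27 and stimulates the enzyme, so that the mark can spread from the sites where the complex is first recruited. In mammals those sites are largely CpG islands, stretches of promoter DNA rich in the dinucleotide CG, and in the embryonic brain the best known targets are developmental regulators of other regions and tissues. PRC1, the partner complex, contains Cbx proteins that also read the mark.

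The 6 promoters below show the sequence range over which Eed was measured, since the CG content of a promoter went with its Eed level across the windows. Each is the 250 bases upstream of the RefSeq start (GRCm38.p6, the assembly of mm10), 5′ to 3′ on the gene's strand, with every CG dinucleotide in capitals. Ugt8a (chr3:125938653-125938902, minus strand, 32 CG) and Hcn4 (chr9:58822699-58822948, plus strand, 25 CG) are among the promoters with the highest ratio of Eed to input. En1 (chr1:120602237-120602486, plus strand, 19 CG) is the middle member of the midbrain, hindbrain and spinal cord regulators. Mcrs1 (chr15:99251962-99252211, minus strand, 23 CG) is CG-rich with little Eed. Kcnk1 (chr8:125994852-125995101, plus strand, 0 CG) has Eed in its window and no CG in these 250 bases. Apol11b (chr15:77643287-77643536, minus strand, 0 CG) had no Eed count.
Ugt8a: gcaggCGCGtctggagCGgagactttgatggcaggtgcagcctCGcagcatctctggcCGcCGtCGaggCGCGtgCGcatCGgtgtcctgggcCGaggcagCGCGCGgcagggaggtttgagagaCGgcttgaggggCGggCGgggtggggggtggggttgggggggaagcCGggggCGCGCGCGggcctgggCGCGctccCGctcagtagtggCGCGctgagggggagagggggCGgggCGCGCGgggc
Hcn4: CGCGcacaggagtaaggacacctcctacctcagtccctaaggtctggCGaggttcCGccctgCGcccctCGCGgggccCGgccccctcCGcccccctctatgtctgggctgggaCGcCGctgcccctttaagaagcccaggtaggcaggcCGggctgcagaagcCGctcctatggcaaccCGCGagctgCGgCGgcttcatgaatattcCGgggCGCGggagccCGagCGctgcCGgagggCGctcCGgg
En1: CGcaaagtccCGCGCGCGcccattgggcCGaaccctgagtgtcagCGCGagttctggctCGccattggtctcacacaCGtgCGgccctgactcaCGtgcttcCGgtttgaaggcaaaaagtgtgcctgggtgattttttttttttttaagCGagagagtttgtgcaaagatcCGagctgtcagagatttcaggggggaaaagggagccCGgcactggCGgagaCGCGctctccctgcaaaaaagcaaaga
Mcrs1: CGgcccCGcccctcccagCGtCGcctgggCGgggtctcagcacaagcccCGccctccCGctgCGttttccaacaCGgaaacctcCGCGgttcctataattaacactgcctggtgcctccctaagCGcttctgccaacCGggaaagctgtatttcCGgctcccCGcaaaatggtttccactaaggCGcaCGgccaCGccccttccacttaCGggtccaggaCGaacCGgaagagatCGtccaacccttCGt
Kcnk1: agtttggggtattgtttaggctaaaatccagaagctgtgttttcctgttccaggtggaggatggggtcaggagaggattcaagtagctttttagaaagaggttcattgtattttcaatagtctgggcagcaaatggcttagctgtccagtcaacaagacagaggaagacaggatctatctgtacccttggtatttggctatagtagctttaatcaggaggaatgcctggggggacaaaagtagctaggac
Apol11b: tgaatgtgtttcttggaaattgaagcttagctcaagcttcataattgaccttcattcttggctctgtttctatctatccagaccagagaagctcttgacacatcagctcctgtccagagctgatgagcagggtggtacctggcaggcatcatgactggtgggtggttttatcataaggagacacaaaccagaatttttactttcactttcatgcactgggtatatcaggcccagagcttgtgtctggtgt

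Across promoters the Eed library split into windows below input and a smaller set well above it. The median window held 11 Eed counts and 19 input counts, from library totals of 1972842 and 1018763 promoter counts. Counts were put on the RPKM scale (counts divided by window length and by the library's promoter total), and the log2 ratio of Eed to input was taken with 0.5 RPKM added to each. Windows whose Eed and input averaged at least 1 RPKM were analysed, 51509 in all. Their median log2 ratio was -1.32, with quartiles of -1.96 and 0.03 and a range of -4.78 to 4.36. At least 2-fold more Eed than input was found in 7482 windows (14.5%), and at least 2-fold less in 30593 (59.4%). These counts depend on the scale. With input rescaled to the median of Eed, 15867 windows were at least 2-fold higher and 2995 at least 2-fold lower. The median ratio was then 0.21. Ratios of gene groups are therefore read against the median of all windows rather than against 0. Counts of higher and lower windows keep the 2-fold rule against input throughout. By that rule the median window is itself lower, so a lower gene can be an ordinary window. The interval of the ratio lay wholly above 0 in 9453 windows and wholly below 0 in 29140. For comparison, the EedcKO and wild type input libraries differed by at least 2-fold in 3065 of 51982 analysed windows (5.90%), with a median of 0.01.

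**Figure D1:**
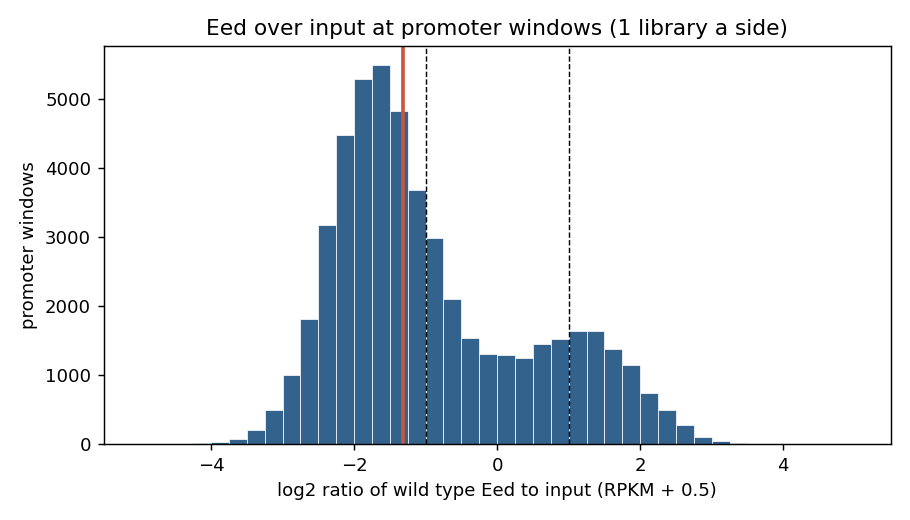
Number of promoter windows (y axis) by log2 ratio of wild type Eed to input (x axis), among the 51509 windows analysed. Dashed lines mark 2-fold and the solid line the median of -1.32, which lies in the larger hump left of 0, and a smaller one lies right of 0.

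A summit of the deposited Eed list lay in 16127 of the analysed windows (31.3%). Windows with a summit had a median log2 ratio of 0.86, and 44.9% of them were at least 2-fold higher than input. The 35382 windows with no summit had a median of -1.70, and 0.664% of them were at least 2-fold higher. The ratio and the summits are both read from the Eed library, so this comparison checks one deposited file against the other.

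The 10 named protein-coding genes with the most Eed for their input included channel, chromatin and enzyme genes. Rims2, an active zone protein of the synapse, was highest by the lower bound of its interval. Its window (chromosome 15, 39197261 to 39199260) held 436 Eed counts and 10 input counts, a log2 ratio of 4.36 (3.60 to 5.56). The window of Pnpla8, a phospholipase, had 148 Eed and 3 input counts, a ratio of 4.27 with a wide interval of 3.10 to 6.97, and overlaps another window. Hcn4, a pacemaker channel, held 362 Eed and 13 input counts (3.74, 3.05 to 4.77). The potassium channel gene Kcnc4 held 350 and 14 counts, and was the 1 gene of these 10 with high H3K27me3, at 1236 counts. The genes for 2 subunits of the MSL histone acetyltransferase complex were both in this group, Msl2 with 314 Eed and 12 input counts and Msl1 with 412 and 18. The remaining members were Usf2, a basic helix-loop-helix factor (334 and 14), Ugt8a, a galactolipid enzyme (256 and 10), Samd1, a protein that binds unmethylated CG-rich DNA (291 and 12), and Rdh10, an enzyme of retinoic acid synthesis (294 and 13). The windows of Usf2 and Rdh10 overlap another window. In the EedcKO Eed library, where the median window held 25 counts, these 10 windows, chosen for high wild type Eed, held between 27 and 71.

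At the other end were windows with ordinary input and almost no Eed. The window of Zbtb3, a zinc finger gene (chromosome 19, 8801555 to 8803554), held 0 Eed counts and 24 input counts. Read against a floor of 3 Eed counts, and with the input count taken as exact, its Eed was at least 15.5-fold lower than its input. The upper bound of its interval, which allows for counting error in both, was -3.54 on the log2 scale, a smaller difference. Apol11b, an apolipoprotein L gene, had 0 and 20 counts, at least 12.9-fold lower by the same floor (upper bound -3.26). Slc39a2, a zinc transporter, and Scgb2b1, a secretoglobin, each had 0 and 19 counts, at least 12.3-fold lower (upper bound -3.18). These folds and bounds are against input, and the median window was itself below input, at -1.32. The log2 ratio of Zbtb3, with the pseudocount, differed from that median by -3.30. Isl2, a LIM homeobox gene of motor neurons, had 2 Eed and 30 input counts, a log2 ratio of -3.92 (-7.97 to -2.88), although its window held 696 H3K27me3 counts. Serpina16 (1 and 23 counts), Smarcal1 (3 and 35), Oacyl (3 and 34), Tm9sf4 (4 and 38) and Defb29 (2 and 27) completed the 10 lowest. Smarcal1, an annealing helicase at replication forks, and Tm9sf4 each held an H3K27ac summit. In the EedcKO Eed library, where the median window held 25 counts, these 10 windows, chosen for low wild type Eed, held between 15 and 56.

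By gene type, Eed lay mainly at protein-coding promoters. The 20383 analysed protein-coding windows had a median log2 ratio of -0.17, and 5823 of them (28.6%) were at least 2-fold higher than input. Long noncoding RNA genes (4857 windows) had a median of -1.54 with 11.7% higher, and pseudogenes (7698) a median of -1.55 with 2.03% higher. Windows of snoRNA genes, which mostly sit in introns, had the lowest median of the larger types at -1.77, with 85.4% at least 2-fold lower.  A summit lay in 57.2% of protein-coding windows, 26.1% of long noncoding RNA windows and 10.6% of pseudogene windows. Chromosome medians spanned -1.55 to -1.16, the lowest on Y and the highest on 19. The Y median rests on 39 windows with medians of 2 Eed and 5 input counts. Among gene types, the protein-coding windows stood apart. The other types with at least 40 analysed windows ran from -1.35 to -1.81. Of the 3876 windows left out for low counts, 1530 were on the Y chromosome.

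Noncoding windows with high Eed often shared their DNA with a protein-coding promoter. Of 1169 microRNA windows, 84 were at least 2-fold higher than input, and 44 of these (52.4%) overlapped a protein-coding window. Among the 849 microRNA windows at least 2-fold lower, 33 (3.89%) did. The pattern was the same for predicted noncoding genes with Gm names, at 62.1% of the 1036 higher and 3.26% of the 18217 lower windows. Over all windows, 11525 of 55385 (20.8%) overlap another window, and counts in such windows cannot be assigned to 1 gene.

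Of 42 gene lists, 31 had a median above that of all windows. The median of protein-coding windows, -0.17, is higher than that of all windows. A list of protein-coding genes can thus lie above all windows and still below protein-coding windows. Counts of members below are to be read against the shares over all windows, 14.5% higher, 59.4% lower and 31.3% with a summit. Over protein-coding windows the shares were 28.6%, 36.8% and 57.2%. The 6 lists with the highest medians were the midbrain, hindbrain and spinal cord regulators, PRC2, the CDK inhibitors, the cortical progenitor genes, PRC1 and the axon guidance genes. The 6 with the lowest were the immune cell receptor, microglia, defensin, liver and gut, small nucleolar RNA and astroglial genes. Ranks of short lists are loose. The 7 CDK inhibitors ran from -1.54 to 2.46 and the 14 astroglial genes from -2.81 to 1.75.

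**Figure D2:**
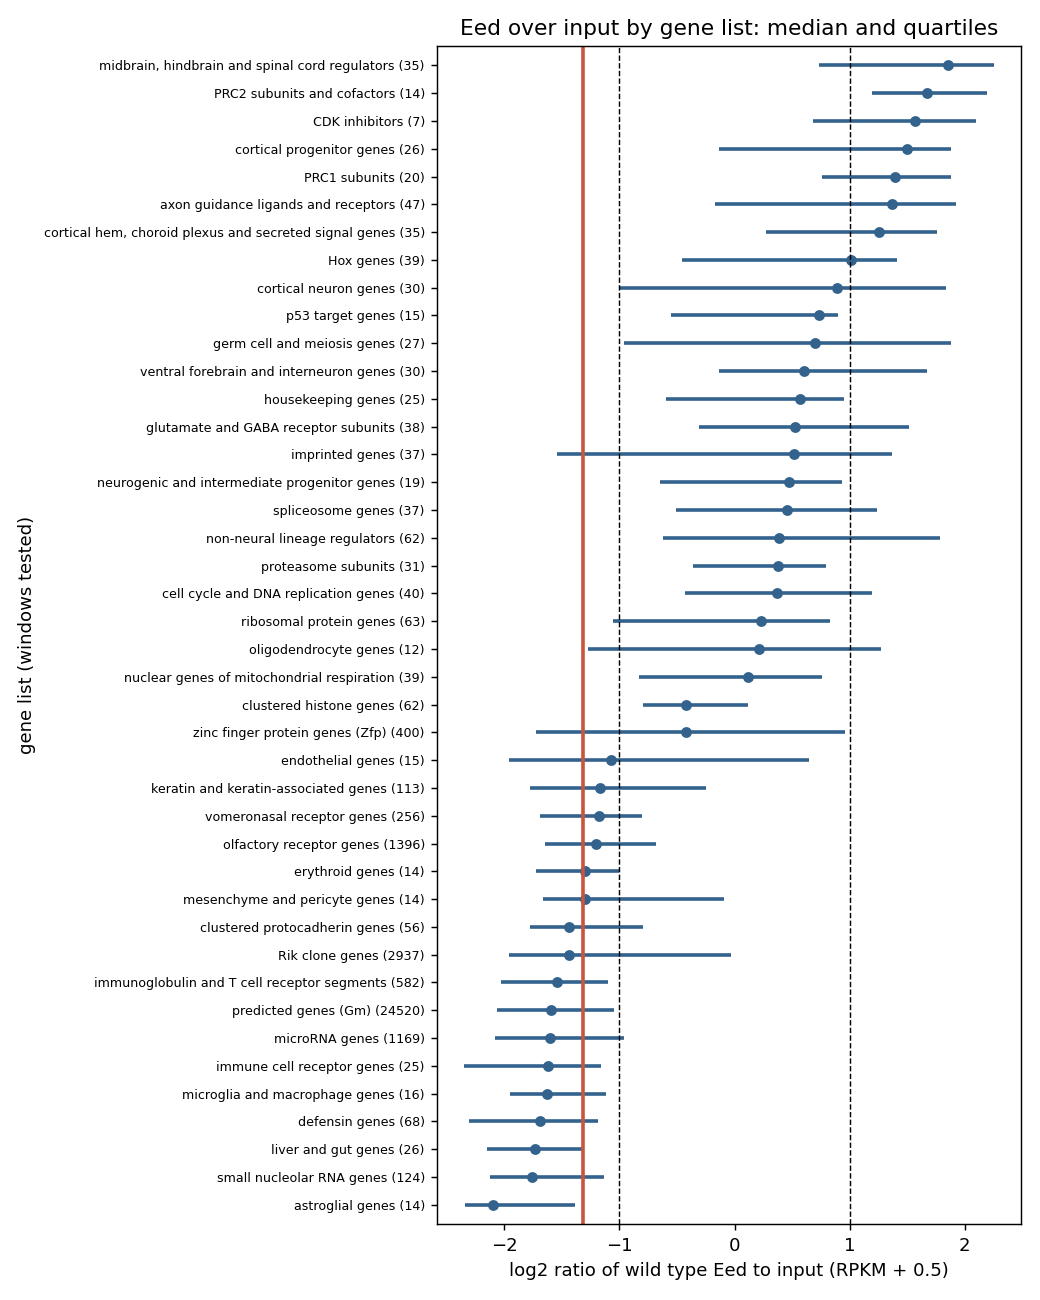
Log2 ratio of wild type Eed to input (x axis) for the 42 gene lists, with each list's median (point) and quartiles (bar). Dashed lines mark 2-fold and the solid line the median of all windows at -1.32. The midbrain, hindbrain and spinal cord regulators lie at the top with a median of 1.85, and the astroglial genes at the bottom with -2.10.

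Regulators that pattern the midbrain, hindbrain and spinal cord had the highest median of all 42 lists. Their 35 windows had a median of 159 Eed and 22 input counts, a log2 ratio of 1.85, which is 3.17 above the median of all windows. Of the 35, 25 were at least 2-fold higher, 2 at least 2-fold lower, and 32 held an Eed summit. Irx2, an Iroquois homeobox gene, was the highest with 218 Eed and 15 input counts (2.83). En1, which specifies the midbrain and anterior hindbrain, lay in the middle with 159 and 22 counts (1.85), and Pax8 was the lowest with 11 and 26 (-2.01). The list's median H3K27me3 was 231 RPKM and its median H3K27ac 7.20 RPKM.

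Hox genes, which set position along the trunk and are silent in forebrain, had a lower median of Eed than those regulators. The 39 windows had a median of 87 Eed and 22 input counts (1.01), with 20 at least 2-fold higher, 6 at least 2-fold lower and 31 with an Eed summit. Their median H3K27me3 was 219 RPKM, close to that of the regulators above. Among the 4 clusters, Hoxd had the highest median at 1.31 (6 of 9 higher, 0 lower). Hoxa followed at 1.06 (6 of 11 higher, 1 lower) and Hoxc at 1.01 (5 of 9 higher, 1 lower). Hoxb stood below them at -0.35, with 3 of 10 higher and 4 lower. Genes of 1 cluster lay far apart. In Hoxd, Hoxd8 held 285 Eed and 20 input counts (2.82) and Hoxd11 19 and 17 (-0.73). In Hoxa, Hoxa4 held 209 and 17 (2.60) and Hoxa10 12 and 26 (-1.90). In Hoxc, Hoxc13 held 158 and 18 (2.12) and Hoxc4 6 and 23 (-2.54), although the Hoxc4 window held 1247 H3K27me3 counts. Many Hox starts lie close together, and the windows of Hoxd3 and Hoxd4, with 104 and 21 counts each, overlap.

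Regulators of non-neural lineages had a lower median than the Hox genes. Of 62 windows, 29 were at least 2-fold higher, 8 at least 2-fold lower and 45 held a summit, with a median of 52 Eed and 21 input counts (0.39). Foxc1, a mesoderm forkhead factor, was the highest with 187 and 11 counts (3.02). Pdx1, the pancreas homeobox factor, was the middle member with 79 and 33 (0.30), and Pax1, a sclerotome gene, the lowest with 9 and 33 (-2.59). The median H3K27me3 of this list was 189 RPKM.

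Genes of the Polycomb complexes were themselves among the promoters with the most Eed. Of the 16 PRC2 subunits and cofactors listed, 14 had a window, and their median was 159 Eed and 26 input counts (1.67). Of these, 12 were at least 2-fold higher, 0 were lower, and 12 held an Eed summit. Phf19 (225 and 18 counts, 2.62), a Polycomb-like subunit that binds methylated lysine 36, was the highest. Lcor (250 and 21, 2.56) and Lcorl (198 and 26, 1.93) share a locus each with the PRC2.1 cofactor Pali proteins. Epop, a PRC2.1 subunit that binds Elongin, held 299 and 31 counts (2.28). The core subunits followed, with Suz12 at 186 and 22 counts (2.08), the methyltransferase Ezh2 at 217 and 27 (2.01), Ezh1 at 136 and 27 (1.35) and Eed at 121 and 27 (1.18). The histone chaperones Rbbp7 (181 and 19, 2.24) and Rbbp4 (126 and 29, 1.14), the Polycomb-like Phf1 (137 and 26, 1.41) and Jarid2 (98 and 21, 1.23) were also past 2-fold. Mtf2, the remaining Polycomb-like subunit, had 51 and 22 counts (0.25) and Aebp2, a PRC2.2 subunit, 76 and 34 (0.20). H3K27me3 was high at Epop alone, with 738 counts, against 24 to 150 at the other 13, and the list's median H3K27ac was 16.1 RPKM.

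The 20 PRC1 genes were similar, with a median of 171.5 Eed and 29.5 input counts (1.39), 12 at least 2-fold higher and 1 lower. Pcgf5, a subunit of variant PRC1, was the highest with 332 and 18 counts (3.18), and Bmi1 (Pcgf4) held 293 and 26 (2.50). The variant subunits Rybp (186 and 19, 2.28), Yaf2 (185 and 26, 1.84) and Pcgf6 (162 and 23, 1.82) were past 2-fold, as were the ubiquitin ligases Ring1 (181 and 24, 1.92) and Rnf2 (224 and 31, 1.87). Among the Cbx readers, Cbx2 (186 and 30, 1.65) and Cbx8 (191 and 34, 1.51) were past 2-fold, and Cbx6 was not (92 and 27, 0.79). Cbx7 was the 1 lower gene with 14 and 20 counts (-1.35), which differs from the median of all windows by only -0.03. Among the Polyhomeotic genes, Phc1 (103 and 23, 1.17) was past 2-fold, and Phc2 (122 and 34, 0.87) and Phc3 (99 and 32, 0.66) were not. Scmh1 had 181 and 38 counts (1.28). Pcgf2 (130 and 38, 0.80), Pcgf3 (91 and 29, 0.68), Pcgf1 (86 and 36, 0.30) and the CG-binding Kdm2b (74 and 38, 0.01) lay below 2-fold. Cbx8 had the most H3K27me3 of the list, with 1086 counts.

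Genes that work in forebrain progenitors also held Eed, and as a list held H3K27me3 as well. The 26 cortical progenitor genes had a median of 155 Eed and 26 input counts, with 17 at least 2-fold higher, 4 lower and 20 with a summit. Their median H3K27me3 was 47.7 RPKM, against 4.27 RPKM over all windows. An H3K27me3 summit lay in 12 of the 26 windows, an H3K27ac summit in 6 and an RNA polymerase II summit in 3. The stem cell factor Sox2 held 183 and 14 counts (2.67), its relative Sox3 192 and 16 (2.56), and Dmrt3 244 and 22 (2.46). Hes1, the Notch effector, held 258 and 31 (2.07), and Gli3, the Hedgehog pathway repressor, 242 and 33 (1.89). Pax6 (14 and 27, -1.76), Nr2f2 (10 and 26, -2.13), Notch1 (7 and 21, -2.25) and Dmrta1 (6 and 23, -2.54) were the 4 lower genes. The Pax6 ratio differed from the median of all windows by -0.44, and its window held 999 H3K27me3 counts. Each symbol was counted in 1 window, so a gene with several starts is represented by 1 of them. The windows of Pax6, Sox3, Gli3 and Nr2f2 overlap another window. Among the other genes named here, so do those of Irx2, Pdx1, Pax1, Lhx8, Cux2, Rspo1, Cdkn1c, Sox9 and Zfp367, of Eed, Rbbp4, Lcorl, Phf19, Phf1 and Aebp2 in PRC2, and of Pcgf5, Ring1, Rnf2, Cbx6, Pcgf1 and Kdm2b in PRC1.

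Lists of later stages and neighbouring regions had lower medians than the progenitor genes. Cortical neuron genes (30) had a median of 0.89, with Cux2 the highest (235 and 18 counts, 2.69) and Rbfox3, the NeuN gene, the lowest (8 and 25, -2.34). Neurogenic and intermediate progenitor genes (19) had 0.47, from Insm1 (299 and 22, 2.76) through Dll1 (68 and 25, 0.47) to Nhlh2 (6 and 18, -2.21). Ventral forebrain and interneuron genes (30) had 0.61, with 13 at least 2-fold higher and 3 lower, from Nkx2-2 (212 and 21, 2.33) to Lhx8 (4 and 22, -2.90). Genes of the cortical hem, the choroid plexus and secreted signals (35) had 1.25, with 21 higher and 5 lower. There the Wnt agonist Rspo1 was highest (240 and 21, 2.50), Wnt11 in the middle (132 and 28, 1.25) and Bmp5 lowest (4 and 23, -2.96).

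Axon guidance genes were a further group with much Eed. Of 47, 30 were at least 2-fold higher, 7 lower and 39 held a summit, with a median of 137 and 25 counts (1.37). The ephrin receptor Ephb2 held 309 and 24 counts (2.68), the semaphorin receptor Plxnd1 230 and 22 (2.38) and the ligand Ntn1 194 and 19 (2.34). Robo1 (12 and 20, -1.54) and Sema3a (5 and 25, -2.85) lay at the other end. Glutamate and GABA receptor subunits (38) had a median of 0.53, with Gabra5 the highest (201 and 16, 2.62). Cyclin-dependent kinase inhibitors (7), which hold cells in G1, had a median of 1.57 with 5 higher and 1 lower. Cdkn1c was the highest of them (297 and 27, 2.46), Cdkn2b the middle (119 and 20, 1.57) and the p53 target Cdkn1a the lowest (12 and 20, -1.54). The Cdkn1a ratio differed from the median of all windows by -0.22.

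Germ cell and meiosis genes, which are silenced outside the germ line, held Eed in a subset with little H3K27me3. Of 27, 12 (44.4%) were at least 2-fold higher, 7 (25.9%) lower and 17 (63.0%) held a summit (median 63 and 19 counts, 0.70). Over protein-coding windows these shares were 28.6%, 36.8% and 57.2%. The higher ones were the transcription factor subunit Taf7l (154 and 8, 3.16), the piRNA pathway genes Tdrd1 (136 and 11, 2.57), Ddx4 (151 and 14, 2.39), Mael (146 and 19, 1.93) and Tdrd6 (177 and 25, 1.83), and the RNA-binding Dazl (242 and 22, 2.45). The synaptonemal complex genes Sycp2 (219 and 21, 2.37), Sycp1 (197 and 22, 2.16), Tex12 (91 and 13, 1.78), Sycp3 (144 and 21, 1.78) and Syce1, and the ADP/ATP carrier Slc25a31, made up the rest. In these 12 windows H3K27me3 ranged from 8 to 38 counts, except for Tdrd6 with 472. IgG ranged from 14 to 43 counts and H3K27ac from 6 to 48. Stra8, the retinoic acid induced meiosis gene, was among those with little Eed (7 and 27, -2.60).

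Lists of genes active in most cells had medians above that of all windows and below those of the regulators of other brain regions. Housekeeping genes (25) had a median of 0.57, spliceosome genes (37) 0.45, proteasome subunits (31) 0.38, cell cycle and DNA replication genes (40) 0.37, ribosomal protein genes (63) 0.23 and nuclear genes of mitochondrial respiration (39) 0.11. A summit lay in 31 of the 37 spliceosome windows, 34 of the 40 cell cycle windows and 47 of the 63 ribosomal protein windows. Within each of these lists the members lay far apart. Ccne2 held 311 and 30 counts (2.38) but Mcm5 11 and 31 (-2.26), Syncrip 234 and 19 (2.61) but Snrpa1 4 and 26 (-3.13), and Atp5d 234 and 29 (2.02) but Ndufa9 6 and 32 (-3.00). Imprinted genes (37), which are expressed from 1 parental copy, had a median of 0.51, with 14 higher and 12 lower, from Peg12 (187 and 14, 2.70) to Rtl1 (6 and 27, -2.77). Targets of p53 (15) had a median of 0.73, with 3 higher and 3 lower. Clustered histone genes (62) had a median of -0.42 and zinc finger genes with Zfp names (400) also -0.42, the latter from Zfp367 (266 and 16, 3.02) to Zfp719 (5 and 38, -3.44).

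Large receptor families lay near the median of all windows but had few high windows and few summits. They lay below protein-coding windows, which had a median of -0.17 with 36.8% at least 2-fold lower. Of 1396 olfactory receptor windows, 9 (0.645%) were at least 2-fold higher and 22 (1.58%) held a summit, against 14.5% and 31.3% of all windows. Their median was 10 Eed and 13 input counts (-1.20), and 59.1% were at least 2-fold lower, close to the 59.4% of all windows. Of 256 vomeronasal receptor windows, 0 were higher and 3 held a summit, and 60.2% were lower, again close to all windows (-1.18). Defensin genes lay below the median of all windows: of 68 windows, 0 were higher, 55 (80.9%) lower and 0 held a summit (-1.70). Many windows of these families also had little input, and 96 of the 352 vomeronasal windows were left out for that reason. Keratin and keratin-associated genes (113) had a median of -1.17 with 58.4% lower, near all windows, and immunoglobulin and T cell receptor segments (582) -1.55 with 78.5% lower. Clustered protocadherin genes (56) had -1.44, a difference from all windows that changed sign under other settings, and Pcdhac2 (86 and 17, 1.33) was the 1 member at least 2-fold higher.

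The astroglial, liver and gut, microglia and immune cell receptor lists lay below the median of all windows. Whether such cells were present in the tissue was not measured. Promoters with sequence in these lists (7, 20, 8 and 14) had medians of 5, 3, 4 and 3 CG. The median over all promoters with sequence was 10 CG. Erythroid genes had 3.5 CG and were not clearly low. The part that CG content has in the low ratios was not tested. Astroglial genes (14) had the lowest median of all lists at -2.10, a loose rank, with 11 (78.6%) lower and 3 (21.4%) higher. Sox9, also a progenitor factor, was the highest (167 and 25, 1.75). An H3K27ac summit lay in 3 of the 14 windows (21.4%), against 11.0% of all windows. The lowest member, Nfib (3 and 17, -2.81), was among these 3. Liver and gut genes (26) had -1.73 with 23 lower and Cdx2 as the 1 higher gene (116 and 20). Microglia and macrophage genes (16) had -1.63 with 13 lower, and the 1 higher, Fcgr3 (205 and 19, 2.42), overlaps another window. Oligodendrocyte genes (12) were not low, with a median of 0.21, 5 higher and 4 lower. Immune cell receptor genes (25) had -1.62, with 21 lower and 0 higher. Endothelial genes (15) had -1.07, above the median of all windows but below that of protein-coding windows (-0.17), with Flt1 the highest (221 and 23, 2.26). Erythroid (14) and mesenchyme genes (14) both had -1.30, next to the median of all windows, and which side of it they lay on depended on the filter, the pseudocount or, for the erythroid genes, the scale.

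Promoters with more CG dinucleotides had higher ratios of Eed to input. RefSeq promoter sequence with its start in the window was at hand for 17075 of the 51509 analysed windows, too few for a check over all windows, so composition is described for these promoters only. Of 3317 promoters with 0 to 2 CG in the 250 bases upstream of the start, 1.09% were at least 2-fold higher in Eed and 2652 promoters were at least 2-fold lower. With 3 to 7 CG (3876), 6.76% were higher and 2674 promoters lower, and with 8 to 14 CG (3426) 23.5% and 1026. With 15 to 24 CG (4080), 45.0% were higher and 367 promoters lower. With 25 to 56 CG (2376), 76.9% were higher and 14 promoters lower. The median log2 ratio went from -1.64 in the first class to 1.53 in the last. Input was higher with more CG too, with medians from 8.34 to 12.8 RPKM. The promoters printed above lie at both ends of this range and among the exceptions to it.

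**Figure D3:**
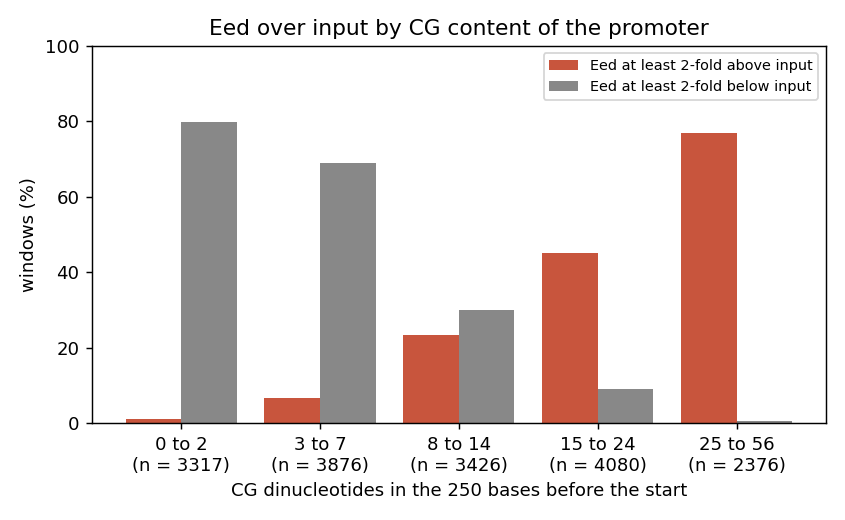
Share of promoters (y axis, percent) at least 2-fold higher and at least 2-fold lower in wild type Eed than in input, by number of CG dinucleotides in the 250 bases upstream of the start (x axis, 5 classes). The higher share goes from 1.09% to 76.9% while the lower share is 0.589% in the last class.

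The relation held among protein-coding genes alone, with exceptions on both sides. Of 5810 protein-coding promoters with at least 15 CG, 3317 (57.1%) were at least 2-fold higher and 327 (5.63%) lower. Of 2081 with fewer than 3 CG, 30 (1.44%) were higher and 1606 (77.2%) lower. Mcrs1, a subunit of the INO80 and NSL complexes, is a CG-rich exception with 6 Eed and 35 input counts (-3.13). Kcnk1, a potassium channel gene, is a CG-poor exception with 170 and 18 counts (2.22) and 212 H3K27me3 counts. Zfyve9 (197 and 18, 2.43) and Zfx (146 and 14, 2.35) are further CG-poor promoters with Eed. These exceptions were chosen after their values were seen. The motif TATAAA, searched on both strands, was in 13.8% of promoters in the lowest of 10 equal classes by Eed ratio and 4.14% in the highest, with the most, 20.4%, in the fourth class, against 10.9% of all 17075.

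The CG-rich classes of 15 to 24 and 25 to 56 CG had median log2 ratios of 0.87 and 1.53. Classes of such promoters by deposited summits of the histone marks differed less in Eed. These summits leave out much of the mark: an H3K27me3 summit lay in 582 (49.0%) of the 1187 windows with at least 500 H3K27me3 counts, and En1, with 1344 counts, has none and is in the class with neither. With at least 15 CG, promoters holding an H3K27me3 summit and no H3K27ac summit (862) had a median log2 ratio of 1.45, and 71.5% were at least 2-fold higher. Those with an H3K27ac summit alone (2410) had 1.11 and 55.0%, those with both (304) 1.18 and 59.2%, and those with neither (2880) 1.07 and 53.5%. With fewer than 8 CG, promoters without a summit of either mark (6607) had a median of -1.64, with 2.53% higher. In that CG-poor class, an H3K27me3 summit alone (297) went with a median of -0.28 and 20.5% higher, and an H3K27ac summit alone (260) with 0.06 and 23.8%. Both together (29) went with 0.77 and 27.6%. There the classes by mark differed more than the classes of 0 to 2 and 3 to 7 CG, with medians of -1.64 and -1.55.

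The other libraries followed the Eed ratio to different degrees. The analysed windows were put in 10 equal classes by their ratio of Eed to input, with median Eed going from 1.27 to 42.3 RPKM. Median H3K27ac was 6.94 RPKM in the lowest class, 4.63 in the middle and 17.5 in the highest, and H3K27me3 4.27 in the lowest and 8.70 in the highest. The share of windows with an H3K27me3 summit went from 1.55% to 24.7%, with an H3K27ac summit from 2.04% to 34.6% and with an RNA polymerase II summit from 51 to 981 windows in a class. IgG did not follow: its median was 10.6 RPKM in the lowest class and lower in the highest. The EedcKO Eed library was also higher, going from 8.99 to 15.9 RPKM, against 9.48 to 11.1 for the EedcKO input. Across the 51509 windows, which are the same DNA in every library, Pearson's r of log2 RPKM between Eed and another library was 0.578 for H3K27ac, 0.535 for RNA polymerase II, 0.532 for H3K27me3, 0.514 for EedcKO Eed, 0.476 for input, 0.368 for EedcKO input and 0.0777 for IgG.

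**Figure D4:**
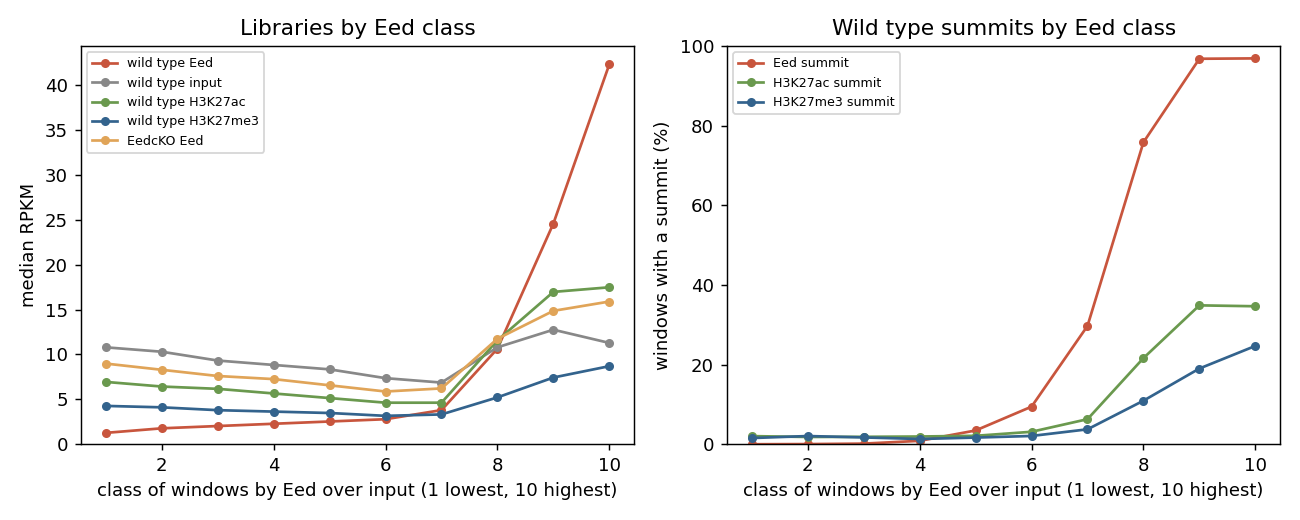
Left, median RPKM (y axis) of 5 libraries in 10 equal classes of promoter windows by log2 ratio of wild type Eed to input (x axis, lowest class first); right, share of windows (y axis, percent) with a wild type Eed, H3K27ac or H3K27me3 summit in the same classes. H3K27ac goes from 6.94 to 17.5 RPKM and H3K27me3 from 4.27 to 8.70, with most of the step in classes 8 to 10.

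Windows above a chosen level of H3K27me3 or of H3K27ac had similar medians of Eed. The 1187 windows with at least 500 H3K27me3 counts had a median of 108 Eed and 24 input counts (1.16). Of these, 649 (54.7%) were at least 2-fold higher, 165 (13.9%) lower, and 964 (81.2%) held an Eed summit. The 2717 windows with at least 100 H3K27ac counts had a median of 116 and 27 counts (1.10), with 53.1% higher, 8.65% lower and an Eed summit in 90.8%. The levels were not matched: the first set had a median of 137 RPKM of H3K27me3 and the second 30.1 RPKM of H3K27ac. Promoters with sequence had a median of 16 CG in the first set and 20 in the second. Several developmental genes with high H3K27me3 had little Eed, among them Lhx8 (963 H3K27me3 counts, 4 Eed and 22 input counts), Pax1 (1269, 9 and 33) and Isl2. The libraries of marks and of Eed came from different assays, and the part that this has in the difference was not tested.

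Eed summits were mostly outside promoters, and the promoter share was larger among summits of higher score. Of 61019 summits, 14406 (23.6%) lay within 1 kb of an annotated start and 30661 (50.2%) more than 10 kb from any. The authors' score, a −log10 significance value, had a median of 40.3 at promoters and 8.28 elsewhere. When summits were put in 10 classes by score, the promoter share went from 5.10% in the lowest to 70.0% in the highest. Promoter summits lay downstream of the start in 72.8% (10486), at a median of 152 bp into the gene, and 55.0% were within 250 bp of it. Most windows with Eed held 1 summit (14760), while 1313 held 2 and 54 held 3.

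**Figure D5:**
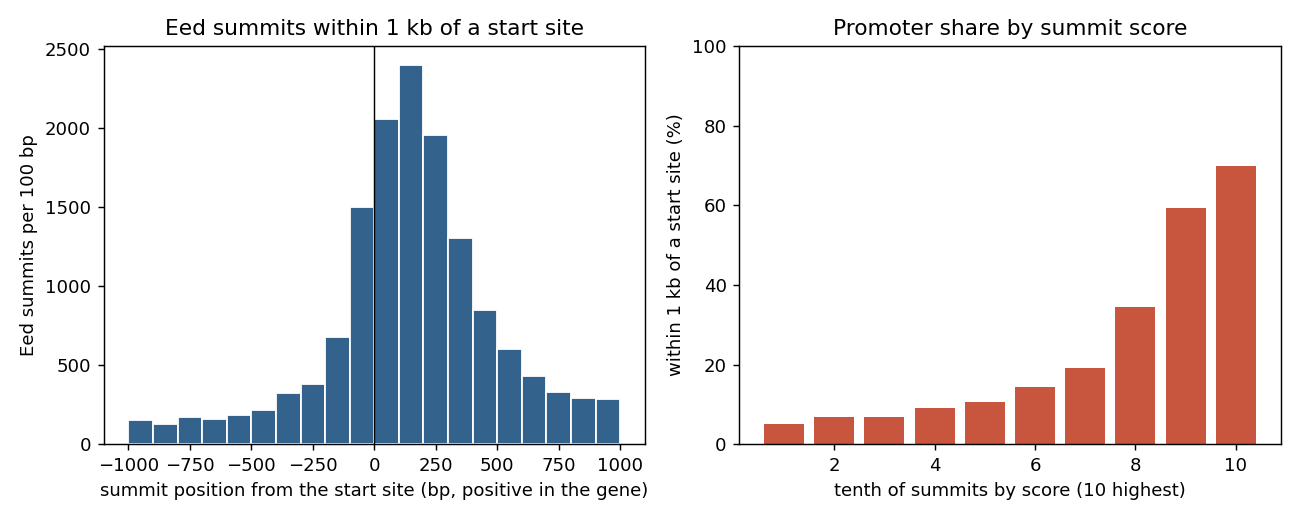
Share of wild type Eed summits within 1 kb of an annotated start (y axis, percent) in 10 classes by the authors' score, and number of promoter summits by distance from the start in bp. The promoter share goes from 5.10% to 70.0%, and most promoter summits lie downstream of the start.

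The summit with the highest score (282) was on chromosome X, 7194 bp from the nearest start. The next, with a score of 247, lay 299 bp from the start of the noncoding gene 3110070M22Rik, whose window held 441 Eed and 58 input counts (1.95). The summit at Sfi1 scored 186, but its window had 877 Eed counts beside 471 in input, a log2 ratio of -0.06 (-0.22 to 0.11), and 953 and 429 in the EedcKO libraries. Adgrb3, an adhesion receptor of synapses, held 194 and 25 counts (1.96) and scored 137, and Dnaja4, a chaperone, 232 and 26 (2.16) and scored 127. The remaining 5 of the 10 highest lay outside promoters. The windows with the most Eed counts of all were high in input as well: AY036118 held 2049 and 1237 counts and Gm42418 1831 and 1177.

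The tissue label was set against marker genes. The 12 forebrain markers had a median of 58 H3K27ac and 539 H3K27me3 counts, and 4 held an H3K27ac summit, against 17 and 1502 counts and 0 such summits for the 6 markers of other regions and tissues. H3K27me3 summits went the other way from the H3K27me3 counts, with 4 at the forebrain markers and 0 at the others. Eed did not separate both groups, with medians of 138 and 131.5 counts. Blood markers (3) had a median of 7 Eed and 10 H3K27ac counts, vessel markers (2) 10.5 and 39.5, and microglia markers (2) 9 and 26.5, with no H3K27ac summit at any of the 7.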

How the data were processed

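Wild type Eed and input (X-ChIP) were compared in E12.5 forebrain. The build was mm10, and the tools ChIPseeker 1.22.1, deepTools 3.4.0, MACS2 2.2.7.1 and Bowtie2 2.4.1, per the submitters' processing notes. For read filters and duplicate removal, settings were not given in the sources used here. Promoter tables as deposited are named for RPKM but hold whole-number counts with totals that differ between libraries. The plan assumed such counts behind the RPKM, which was computed here from the counts, the window length and the library's promoter total. The deposited summit score is a −log10 significance value by its range; whether of p or q is not stated, and it ranked summits within the list only. The authors called peaks in 1 library at a time.

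The log2 ratio used a pseudocount of 0.5 RPKM, a mean of at least 1 RPKM and a size rule of 2-fold. For each symbol the window with the highest input RPKM was used. Ratios near the pseudocount understate differences of low windows. Intervals treat reads as independent, which reads lacking molecular identifiers need not be. Named genes were the 10 highest by the lower bound and 10 lowest by the upper bound of the interval among protein-coding named genes, the highest, middle and lowest member of each list, all PRC1 and PRC2 genes, genes at the 10 top summits, Eed and the markers; a few of these are not reported here. Other genes were chosen after their values were seen, as were the CG classes, the levels of 500 and 100 counts, the comparison of both inputs and the overlap with protein-coding windows. Members and lists were chosen with earlier results of these data known. The ratio was tested on simulated data. Alternatives changed the pseudocount, filter, scaling, control, windows and summits. Gene types and promoter sequences came from RefSeq (GRCm38.p6). Python 3.11.15, pandas 2.3.3, numpy 2.4.6 and SciPy 1.17.1 were used. The EedcKO histone mark, RNA polymerase II and IgG tables and the EedcKO summits were not used here.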

Additional observations from a re-analysis of the deposited data

How the results depend on the processing

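No paired analysis was possible because each genotype and target had 1 library. The median log2 ratio of all windows was -1.32 as reported, -1.44 with a pseudocount of 0.1 RPKM, -0.97 with 2 RPKM, -1.22 without a filter, -1.28 with at least 20 counts, -1.40 with both inputs added up and -1.43 without overlapping windows. With input rescaled to the median of Eed it was 0.21. Windows at least 2-fold higher then numbered 15867 and those lower 2995. Without overlapping windows 4396 were higher. The share of summits at promoters, 23.6% as reported, was 39.5% for summits of at least the median score, 59.6% for those of at least the upper quartile, 19.1% within 500 bp and 28.3% within 2 kb. Relative to all windows, the erythroid median changed side in 4 settings (-0.0203 with 0.1 RPKM, -0.0741 without a filter, -0.331 with at least 20 counts, -0.0673 with input rescaled). The mesenchyme median did so in 3 (-0.0643 with 2 RPKM, -0.0760 without a filter, -0.0203 with at least 20 counts). Olfactory receptor genes did with at least 20 counts (-0.00203) and both inputs (-0.000672), and protocadherin genes with both inputs (0.0526) and without overlapping windows (0.0490). Of 294 list values under alternatives, 261 moved by less than their spread, 22 by more and 11 changed side. Of 135 such values of named genes, 130 stayed inside the interval of their ratio, 5 left it and 0 changed side. The cause was not tested. The low window counts limit single ratios: a median of 11 Eed counts leaves wide intervals.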
